A study of Homo sapiens with 12 samples.

Results

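Described here are 10 genes of the oxidative stress and iron response, chosen by name from a list: NFE2L2, HMOX1, NQO1, FTH1, FTL, GCLC, GCLM, SLC7A11, TXNRD1 and SRXN1. The choice was made with earlier results of these data known, so counts among them are set beside all genes as description only. All 10 were found among the 20263 Ensembl genes measured, and all 10 passed the filter on low values in both cell lines. Messenger RNA was sequenced in 12 libraries from 2 established colorectal cancer lines of human origin, HCT116 and RKO. HCT116 cells carried a construct that overexpresses CKAP2L (3 libraries) or the empty vector (3 libraries). RKO cells carried a short hairpin RNA against CKAP2L (shCKAP2L, 3 libraries) or its negative control (NC, 3 libraries). The CKAP2L protein sits on the mitotic spindle, and the study's title links it to STAT3, AREG and EGFR in colorectal cancer. Groups follow the library titles, since the genotype field reads shCKAP3L for RKO shCKAP2L replicate 2 and shCKAP4L for replicate 3. The sources used here do not say whether a group is a clone or a pool of cells, which hairpin was used or where the replicates came from, so p-values measure the spread between libraries, which may be technical.

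NRF2, the transcription factor encoded by NFE2L2, is held at low levels by KEAP1, which hands it to a ubiquitin ligase. Oxidants and electrophiles free it, and together with small MAF proteins it binds antioxidant response elements near genes of detoxification, glutathione, thioredoxin, heme and iron handling. HMOX1, which encodes the inducible heme oxygenase, is also held down by the repressor BACH1, which leaves DNA when heme is abundant. Heme oxygenase opens heme into biliverdin, carbon monoxide and iron, and ferritin, built of the heavy chain FTH1 and the light chain FTL, stores iron. Ferritin is controlled at translation as well: iron regulatory proteins bind a hairpin in the 5′ end of both mRNAs, so an mRNA level need not follow the protein.

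The sequences shown first are stretches that were searched for such control sites. RefSeq promoter windows of GRCh38.p14, from 250 bases before to 50 after a start site, were matched for 7 of the 10 genes. They were searched on both strands for TGACNNNGC, the core of the antioxidant response element, which 13.3% of all 35116 windows hold, and for TGANTCA, the AP-1 site, which 7.71% hold. The 2 motifs can overlap. The core was found in the windows of 2 genes, TXNRD1 and GCLM, and not in those of NQO1, FTL, GCLC, SRXN1 or NFE2L2, and no window of the 7 genes held TGANTCA. A match is a description of letters, not a bound site. Elements beyond the window were not searched, so a gene without a match may hold one farther away. HMOX1, FTH1 and SLC7A11 had no window. Bases -150 to 10 are shown for TXNRD1, which has 2 start sites in the table, for GCLM, which also had a match, and for NQO1, which had none. Whether a match bears on a gene's change was not tested. Capitals mark the core, read on either strand, and all sequences are given 5′ to 3′ on the gene's strand (chr12:104215629-104215788 and chr12:104286882-104287041, plus strand; chr1:93909421-93909580 and chr16:69726551-69726710, minus strand).
TXNRD1 start 1: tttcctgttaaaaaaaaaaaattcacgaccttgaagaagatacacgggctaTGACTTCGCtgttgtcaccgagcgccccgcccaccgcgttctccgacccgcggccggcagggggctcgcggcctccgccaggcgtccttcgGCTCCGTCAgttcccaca
TXNRD1 start 2: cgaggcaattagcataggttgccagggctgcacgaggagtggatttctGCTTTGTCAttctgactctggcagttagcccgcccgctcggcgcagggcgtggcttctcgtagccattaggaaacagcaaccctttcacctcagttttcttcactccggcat
GCLM: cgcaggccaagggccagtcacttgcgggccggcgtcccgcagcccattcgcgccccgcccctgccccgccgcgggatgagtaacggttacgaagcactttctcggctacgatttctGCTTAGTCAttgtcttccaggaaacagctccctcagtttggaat
NQO1: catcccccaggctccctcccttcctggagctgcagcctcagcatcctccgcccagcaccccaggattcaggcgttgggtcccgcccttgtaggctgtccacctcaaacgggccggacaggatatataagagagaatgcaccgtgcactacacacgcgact

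The core lay at -99 to -91 and at -8 to 1 of the first TXNRD1 start, at -102 to -94 of the second and at -34 to -26 of GCLM. Gene-level values do not tell which TXNRD1 start was used.

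The iron-responsive elements of both ferritin mRNAs are shown as sites of translational control, and their link to mRNA levels was not tested. They were found in the 5′ untranslated region of GENCODE 29 transcripts with the pattern CNNNNNCAGTGN, read on the transcript strand, which 7.47% of 82892 protein-coding transcripts also hold in their first 200 bases. Capitals mark the loop (FTH1 at chr11:61967574-61967603, minus strand; FTL at chr19:48965334-48965363, plus strand; GRCh38).
FTH1: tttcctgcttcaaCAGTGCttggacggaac
FTL: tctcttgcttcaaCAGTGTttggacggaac

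Counted from the first base shown, FTL differs from FTH1 at 3 of the 30 bases: T2C, C5T and C19T.

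Values are TPM, a length-adjusted share of the transcripts in a library on a fixed scale, so levels of different genes can be set side by side. TPM keeps no depth, and the sequencing depth is therefore unknown. Changes are log2 fold changes of TPM + 1 with standard errors (SE), tested with limma over all genes whose TPM averaged 1 or more, and the threshold for a call was an adjusted p of 0.05 (Benjamini-Hochberg over all tested genes, two-sided). The lines were scaled in separate tables, so levels across lines are set side by side without a test. CKAP2L was at 231.04, 230.51 and 219 TPM with the construct, against 14.16, 12.75 and 15.15 with vector in HCT116. With the hairpin in RKO the values were 7.59, 7.82 and 8.56 TPM for shCKAP2L, against 24.9, 23.99 and 25.75 for NC, so the libraries with unlike genotype labels were as low as the first.

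As a check of the cells, 7 of 8 epithelial markers had a mean of at least 1 TPM in both HCT116 groups. In RKO 4 of 8 did, with the adhesion gene CDH1 listed at 0 in all 6 libraries and KRT19 and VIL1 at no more than 0.05 TPM. The summed epithelial markers were at 6674 to 6745 TPM with CKAP2L and 7275 to 7666 with vector in HCT116, and at 149.3 to 158.4 TPM with shCKAP2L and 197.6 to 209.3 with NC in RKO; their part in the results was not tested. The sum of HCT116 followed the keratins KRT8, KRT18 and KRT19, while EPCAM (315.7 to 322.5 TPM with CKAP2L and 281.2 to 286.5 with vector), CDH1 and CLDN4 were higher with CKAP2L. In RKO it followed KRT18 (89.06 to 95.61 TPM with shCKAP2L and 144.2 to 156.0 with NC), while EPCAM and KRT8 were higher with shCKAP2L. Of 7 leukocyte markers, only the lysosomal gene CD68 averaged at least 1 TPM, at 25.55 to 29.82 TPM with CKAP2L and 28.95 to 34.84 with vector in HCT116, and at 1056 to 1070 TPM with shCKAP2L and 1031 to 1048 with NC in RKO. The defining leukocyte gene PTPRC was at 0.15 TPM or less in every library. Only COL1A1 of 7 fibroblast markers averaged at least 1 TPM in any group. It was at 46.34 to 46.79 TPM with CKAP2L and 39.91 to 43.46 with vector in HCT116. In RKO, COL1A1 was at 0.82 to 0.95 TPM with shCKAP2L and 0.84 to 1.14 with NC. No endothelial marker of the 5 listed averaged 1 TPM in any group. The mitochondrially encoded mRNAs held 25.7% to 26.1% of TPM with CKAP2L and 28.0% to 28.6% with vector in HCT116, and 22.4% to 23.7% with shCKAP2L and 20.4% to 22.5% with NC in RKO.

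In HCT116, 5 of the 10 genes rose with CKAP2L and 0 fell, where 20.6% of all 12732 tested genes changed, 16.4% up and 4.26% down. The 5 were SLC7A11, HMOX1, FTH1, TXNRD1 and NFE2L2. In RKO, 3 of the 10 rose with shCKAP2L (HMOX1, TXNRD1 and GCLC) and 5 fell (NQO1, SLC7A11, NFE2L2, FTH1 and SRXN1), where 68.5% of all 11442 tested genes changed, 26.4% up and 42.1% down. The median log2 fold change of the 10 was 0.15 in HCT116 and -0.08 in RKO, beside 0.05 and -0.05 for all tested genes. Scaling moved the split over all genes. With libraries rescaled by the median of ratios, 1128 genes rose and 1188 fell in HCT116 (2082 and 543 as deposited), and 3987 rose and 3998 fell in RKO (3019 and 4819 as deposited). Of the 10 genes, 4 rose and 0 fell in HCT116 under that rescaling, and 3 rose and 4 fell in RKO. The groups did not overlap for 7 of the 10 genes in each line, against 37.3% of all genes in HCT116 and 71.4% in RKO.

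**Figure D1:**
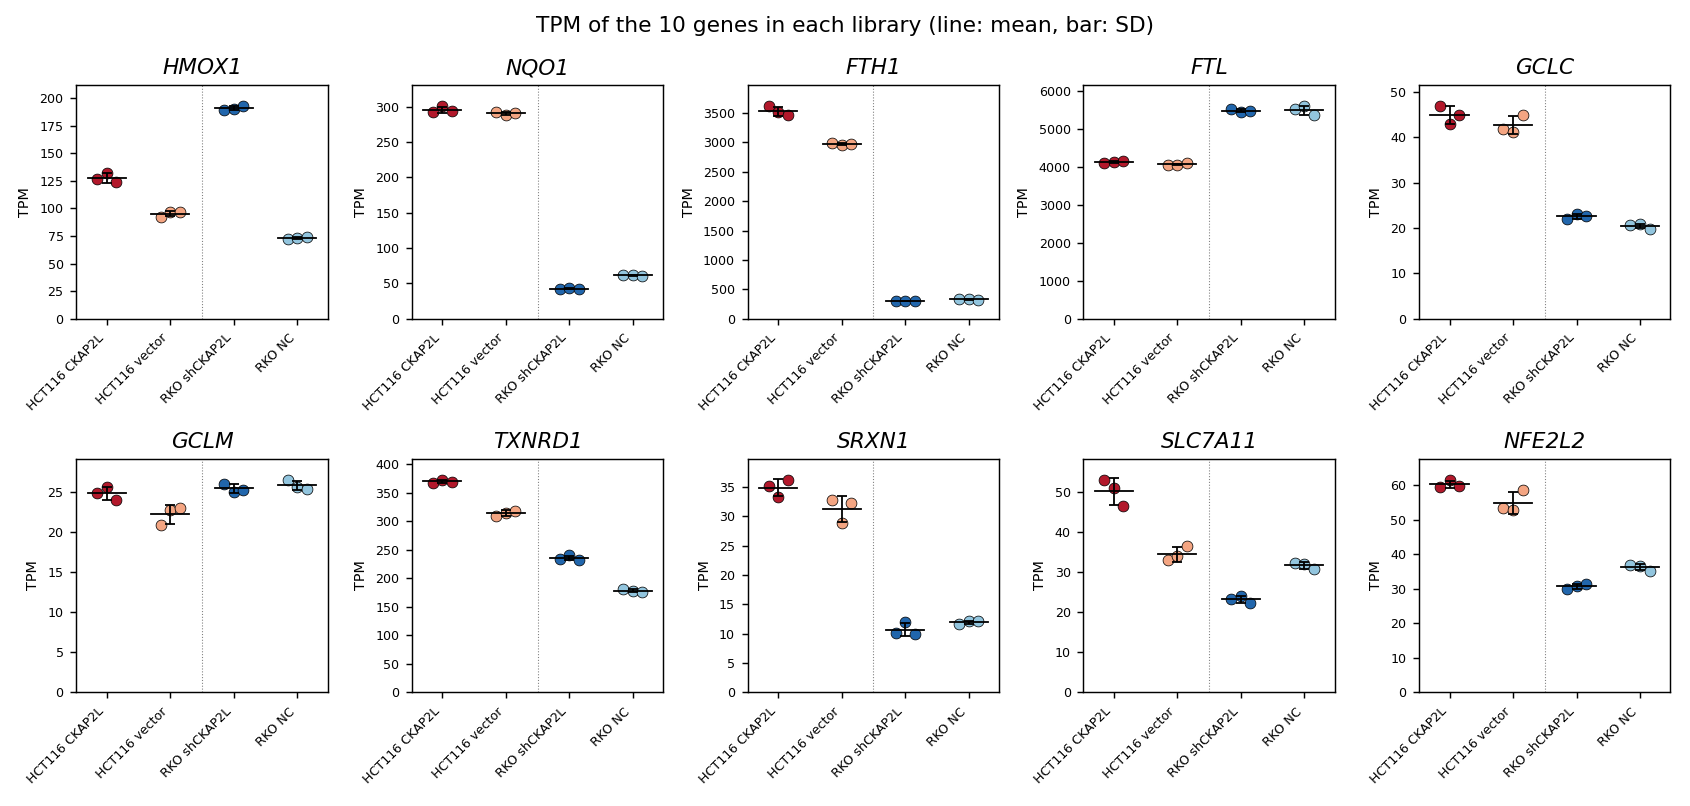
TPM (vertical axes, from 0) of the 10 genes in the 12 libraries, with 1 point per library, the group mean as a line and the SD as a bar; groups run along the horizontal axes. HMOX1 is highest in RKO shCKAP2L, at 189.61 to 192.79 TPM, while FTH1 lies at 2958.27 TPM or more in HCT116 and at 337.98 or less in RKO.

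**Figure D2:**
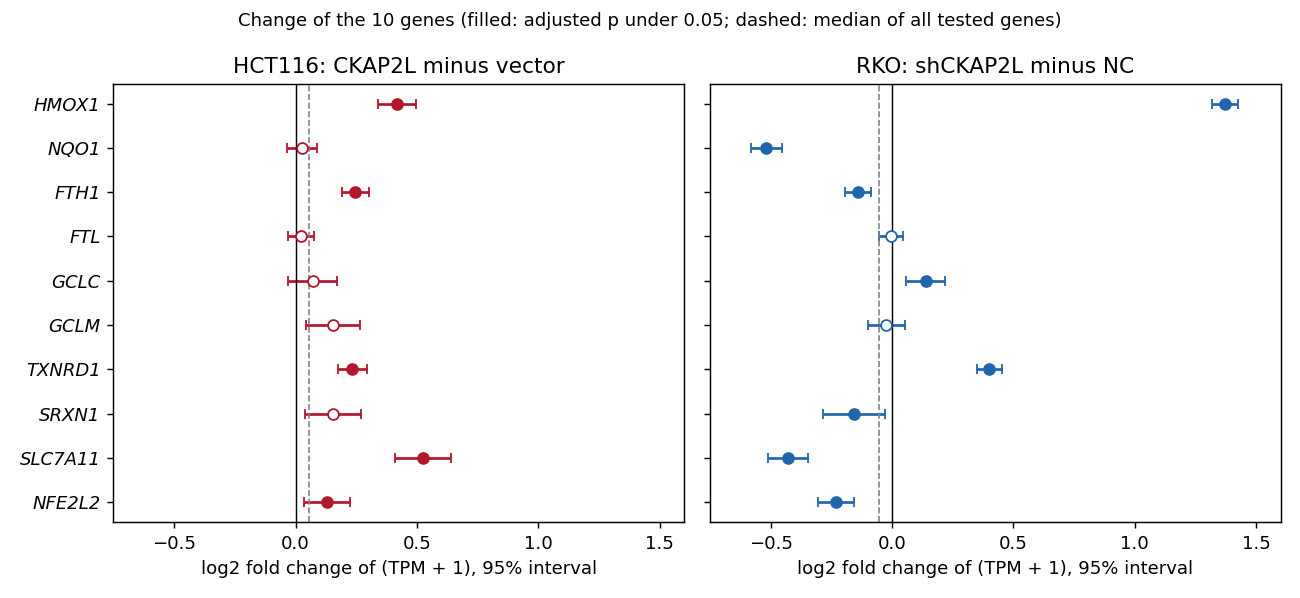
Log2 fold changes of TPM + 1 with 95% intervals for the 10 genes, CKAP2L minus vector in HCT116 (left) and shCKAP2L minus NC in RKO (right); filled points passed an adjusted p of 0.05 and dashed lines give the median of all tested genes. HMOX1 lies at 0.42 and 1.37, NQO1 at 0.026 and -0.52.

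HMOX1 (ENSG00000100292, GRCh38 chromosome 22, 35380361 to 35394214, plus strand) was higher in the manipulated cells of both lines, although CKAP2L was raised in the first and lowered in the second. In RKO it was at 189.61, 190.26 and 192.79 TPM with shCKAP2L, against 72.04, 73.24 and 74.13 with NC. The groups were far apart: HMOX1 averaged 190.9 ± 1.68 TPM with shCKAP2L and 73.14 ± 1.05 with NC (SD, n = 3 each), a TPM ratio of 2.61. The log2 fold change of 1.37 ± 0.025 (SE; adjusted p = 8.82e-15; higher in 3 of 3 libraries) was the 15th largest rise among 11442 genes. HCT116 libraries held 127.11, 132.15 and 123.55 TPM with CKAP2L, against 92.58, 96.49 and 96.65 with vector. Again no library overlapped, with a TPM ratio of 1.34 and a log2 fold change of 0.42 ± 0.036 (SE; adjusted p = 3.16e-06). By level the groups ran from RKO shCKAP2L over HCT116 CKAP2L (127.6 ± 4.32 TPM) and HCT116 vector (95.24 ± 2.31 TPM) to RKO NC (SD, n = 3 each), with no overlap between neighbours. HMOX2, the constitutive heme oxygenase, did not rise with it. It averaged 52.96 ± 0.396 TPM with shCKAP2L and 62.09 ± 1.91 with NC in RKO (log2 fold change -0.22, adjusted p = 9.71e-06), and 55.06 ± 1.1 with CKAP2L and 53.28 ± 1.04 with vector in HCT116 (SD, n = 3 each; adjusted p = 0.415). There were thus 3.60 HMOX1 transcripts per HMOX2 transcript with shCKAP2L and 1.18 with NC in RKO, and 2.32 with CKAP2L and 1.79 with vector in HCT116.

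NQO1 (ENSG00000181019, chromosome 16, 69706996 to 69726951, minus strand), which encodes a quinone reductase and is a textbook NRF2 target, did not follow HMOX1. RKO libraries held 41.76, 43.61 and 42.07 TPM with shCKAP2L, against 61.31, 61.83 and 60.61 with NC. It fell by 30.6% with no overlap (log2 fold change -0.52 ± 0.03, SE; adjusted p = 7.93e-10). HCT116 values were 292.44, 300.86 and 294.37 TPM with CKAP2L, against 292.88, 288.26 and 290.62 with vector. These overlapped, and the log2 fold change of 0.026 (95% interval -0.04 to 0.09, adjusted p = 0.554) turned to -0.033 under median-of-ratios rescaling and to -0.022 without mitochondrial mRNAs.

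Set against NQO1 within each library, HMOX1 was at 4.54, 4.36 and 4.58 transcripts per NQO1 transcript with shCKAP2L, against 1.18, 1.19 and 1.22 with NC in RKO. In HCT116 the ratio was 0.435, 0.439 and 0.420 with CKAP2L, against 0.316, 0.335 and 0.333 with vector. HMOX1 was thus the less abundant of the pair in every HCT116 library and the more abundant in every RKO library. On the log2 scale the difference between the genes was 1.89 higher with shCKAP2L than with NC, and 0.39 higher with CKAP2L than with vector. Neither overlapped between groups. An exact permutation test (two-sided) gave p = 0.1 for each, the smallest that 3 against 3 libraries allow, and 0.109 after adjustment over the 12 ratio tests made (6 gene pairs in 2 lines, of which 3 pairs were chosen after the data were seen: FTL with FTH1, GCLC with GCLM and HMOX1 with HMOX2). Ratios within a library do not depend on how libraries were scaled, apart from the pseudocount.

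**Figure D3:**
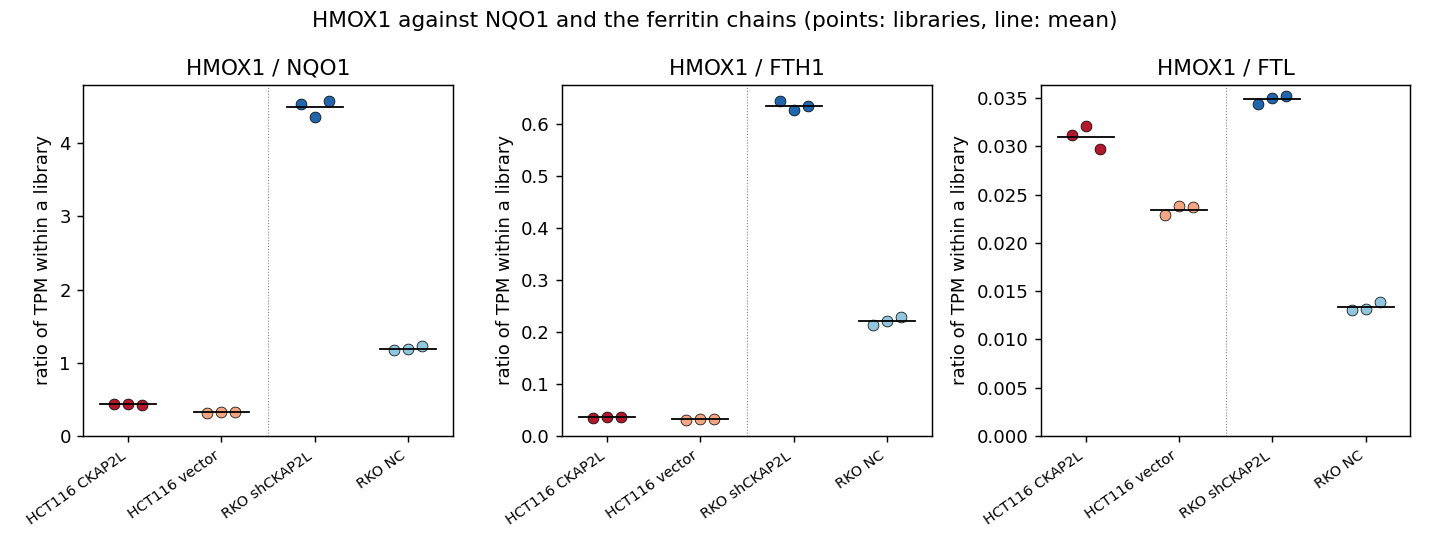
Ratio of HMOX1 TPM to NQO1, FTH1 and FTL TPM within each library (vertical axes, from 0), with 1 point per library and the group mean as a line, by group along the horizontal axes. The HMOX1 to NQO1 ratio averages 4.50 in RKO shCKAP2L and 1.19 in RKO NC, and 0.431 in HCT116 CKAP2L and 0.328 in HCT116 vector.

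The light chain FTL was among the most abundant mRNAs in both lines. The heavy chain FTH1 was so in HCT116, and ranked 325 with NC and 347 with shCKAP2L in RKO. Only the heavy chain passed the test in either line. FTH1 (ENSG00000167996, chromosome 11, 61959718 to 61967660, minus strand) was at 3617.37, 3518.1 and 3464.9 TPM with CKAP2L, against 2998.47, 2958.27 and 2973.81 with vector in HCT116. All 3 were higher (log2 fold change 0.25 ± 0.027, SE; adjusted p = 2.2e-05). In RKO, FTH1 was at 293.77, 302.65 and 303.7 TPM with shCKAP2L, against 337.98, 329.29 and 323.71 with NC, all 3 lower (log2 fold change -0.14 ± 0.025, SE; adjusted p = 0.000161). FTL (ENSG00000087086, chromosome 19, 48965301 to 48966878, plus strand) had 4083.07, 4123.53 and 4160.46 TPM with CKAP2L, against 4043.88, 4054.63 and 4084.47 with vector in HCT116. In RKO it was at 5509.34, 5431.6 and 5470.45 TPM with shCKAP2L, against 5508.65, 5591.38 and 5360.64 with NC. Both FTL comparisons overlapped. The log2 fold change was 0.022 in HCT116 (95% interval -0.03 to 0.08, adjusted p = 0.579) and -0.0041 in RKO (-0.06 to 0.05, adjusted p = 0.887), and other scalings turned its sign in both lines.

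The balance of the chains differed more between the lines than between the groups. Per FTH1 transcript there were 18.75, 17.95 and 18.01 FTL transcripts with shCKAP2L and 16.3, 16.98 and 16.56 with NC in RKO. In HCT116 there were 1.13, 1.17 and 1.20 with CKAP2L and 1.35, 1.37 and 1.37 with vector. FTH1 made up 5.20% ± 0.12 of ferritin transcripts with shCKAP2L and 5.68% ± 0.11 with NC in RKO, and 46.2% ± 0.775 with CKAP2L and 42.3% ± 0.244 with vector in HCT116 (SD, n = 3 each). The sum of both chains was nearer between the lines, at 5771 ± 34.6 TPM with shCKAP2L and 5817 ± 121 with NC in RKO, and 7656 ± 39.5 with CKAP2L and 7038 ± 23.0 with vector in HCT116 (SD, n = 3 each). GENCODE 29 names 25 pseudogenes of FTH1 and 16 of FTL, and none has a row in the tables. How reads that match several places were counted is not stated in the sources used here, so ferritin levels are uncertain. BEST1, on the opposite strand of the FTH1 span, was at 20.11 to 21.72 TPM with CKAP2L and 14.13 to 15.55 with vector in HCT116, and at 0.45 to 0.53 TPM with shCKAP2L and 0.64 to 0.71 with NC in RKO. Whether counting used strand is not given either, and the part of BEST1 in the FTH1 values was not tested.

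Per FTH1 transcript, HMOX1 reached 0.645, 0.629 and 0.635 with shCKAP2L, against 0.213, 0.222 and 0.229 with NC in RKO. On the log2 scale HMOX1 minus FTH1 was 1.51 higher with shCKAP2L, and HMOX1 minus FTL 1.38 higher. In HCT116 the ratio was 0.0351, 0.0376 and 0.0357 with CKAP2L, against 0.0309, 0.0326 and 0.0325 with vector. HMOX1 minus FTH1 was 0.17 higher and HMOX1 minus FTL 0.40 higher with CKAP2L. Groups did not overlap in any of these 4 comparisons, and each gave the smallest possible p of the exact permutation test, 0.1.

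Glutathione is made in the cytosol from cysteine, which enters cells mainly as cystine through the transporter subunit SLC7A11, a known target of NRF2 and of the stress factor ATF4. SLC7A11 (ENSG00000151012, chromosome 4, 138164097 to 138242349, minus strand) was at 53.14, 51.1 and 46.56 TPM with CKAP2L, against 33.1, 33.99 and 36.72 with vector in HCT116. It was the largest rise of the 10 genes there (log2 fold change 0.53 ± 0.054, SE; adjusted p = 1.42e-05) with no overlap. RKO libraries held 23.35, 24.21 and 22.45 TPM with shCKAP2L, against 32.46, 32 and 30.78 with NC. It fell by 26.5%, again with no overlap (log2 fold change -0.43 ± 0.038, SE; adjusted p = 8.73e-08). SLC7A11 was thus higher in the group with more CKAP2L in both lines, and HMOX1 only in HCT116.

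Glutamate-cysteine ligase, which makes the first bond of glutathione, has the catalytic subunit GCLC and the modifier GCLM. GCLC (ENSG00000001084, chromosome 6, 53497341 to 53616970, minus strand) was at 22.03, 23.09 and 22.71 TPM with shCKAP2L, against 20.59, 20.89 and 19.86 with NC in RKO, a small rise with no overlap (log2 fold change 0.14 ± 0.038, SE; adjusted p = 0.00413). HCT116 values were 46.9, 42.89 and 45 TPM with CKAP2L, against 41.89, 41.28 and 44.94 with vector (0.07, adjusted p = 0.302). GCLM (ENSG00000023909, chromosome 1, 93885205 to 93909456, minus strand) was at 24.82, 25.65 and 23.99 TPM with CKAP2L, against 20.85, 22.74 and 23.02 with vector in HCT116. These did not overlap but missed the threshold (0.15 ± 0.053, SE; adjusted p = 0.0509), and without vector replicate 3 they passed (0.18, adjusted p = 0.025). RKO values were 26, 24.98 and 25.24 TPM with shCKAP2L, against 26.47, 25.62 and 25.4 with NC. These overlapped (-0.023, 95% interval -0.1 to 0.05, adjusted p = 0.581), and both rescalings turned the sign. The ratio of GCLC to GCLM was 0.89 ± 0.0393 with shCKAP2L and 0.792 ± 0.0206 with NC in RKO, with no overlap (exact permutation p = 0.1). In HCT116 it was 1.81 ± 0.122 with CKAP2L and 1.93 ± 0.0996 with vector (SD, n = 3 each; exact permutation p = 0.4).

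TXNRD1 (ENSG00000198431, chromosome 12, 104215779 to 104350305, plus strand), which encodes the cytosolic thioredoxin reductase, was the other gene higher in the manipulated cells of both lines. RKO libraries held 234.31, 240.61 and 232.35 TPM with shCKAP2L, against 180.92, 177.51 and 176.35 with NC (log2 fold change 0.40 ± 0.025, SE; adjusted p = 1.58e-09). In HCT116 it was at 367.95, 372.7 and 369.33 TPM with CKAP2L, against 309.68, 314.89 and 318.86 with vector (0.23 ± 0.028, SE; adjusted p = 5.77e-05). No library overlapped in either line. EID3, within the TXNRD1 span on the same strand, was at 3.01 to 3.13 TPM with shCKAP2L and 2.53 to 3.16 with NC in RKO, and at 2.8 to 4.38 TPM with CKAP2L and 1.68 to 2.46 with vector in HCT116.

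SRXN1 (ENSG00000271303, chromosome 20, 646615 to 653370, minus strand), which encodes sulfiredoxin, the enzyme that repairs over-oxidised peroxiredoxins, gave calls that hung on single libraries. In RKO it was at 10.08, 12.01 and 9.96 TPM with shCKAP2L, against 11.68, 12.12 and 12.14 with NC. Replicate 2 of shCKAP2L lay among the NC values, and the log2 fold change of -0.16 ± 0.059 (SE; adjusted p = 0.0292) became -0.24 (adjusted p = 0.000965) without it. The call was lost without shCKAP2L replicate 1 (-0.12, adjusted p = 0.121) or 3 (-0.11, adjusted p = 0.13) and without NC replicate 2 (adjusted p = 0.0602) or 3 (adjusted p = 0.0788). It was lost in 8 of 14 alternatives in all. HCT116 values were 35.11, 33.32 and 36.22 TPM with CKAP2L, against 32.77, 28.8 and 32.26 with vector. These did not overlap but missed the threshold (0.15 ± 0.054, SE; adjusted p = 0.0585), and they passed without vector replicate 1 (adjusted p = 0.0495) or 3 (adjusted p = 0.0352). AL121758.1, which overlaps the SRXN1 span on the same strand, was also measured. Its values are not given here, and its part in the SRXN1 values was not tested.

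NFE2L2 itself (ENSG00000116044, chromosome 2, 177227595 to 177392697, minus strand) was at 30.02, 30.89 and 31.42 TPM with shCKAP2L, against 36.85, 36.73 and 35.21 with NC in RKO. It fell by 15.1% with no overlap (log2 fold change -0.23 ± 0.034, SE; adjusted p = 2.35e-05). In HCT116 it was at 59.49, 61.57 and 59.72 TPM with CKAP2L, against 53.42, 52.9 and 58.61 with vector (0.13 ± 0.044, SE; adjusted p = 0.0494). Vector replicate 3 lay nearest the CKAP2L libraries, and without it the change was 0.18 (adjusted p = 0.00306). Leaving out any other library ended the call: the adjusted p was 0.105 without CKAP2L replicate 1, 0.163 without 2 and 0.0989 without 3, and 0.161 without vector replicate 1 and 0.166 without 2. It was lost in 11 of 14 alternatives in all. AGPS overlaps the NFE2L2 span on the opposite strand. In RKO, AGPS was at 25.19 to 25.84 TPM with shCKAP2L and 25.16 to 27.01 with NC (-0.03, adjusted p = 0.456). In HCT116, AGPS was at 22.57 to 23.68 TPM with CKAP2L and 21.17 to 21.64 with vector (0.11, adjusted p = 0.13). The part of AGPS in the NFE2L2 values was not tested. The mRNA level says nothing of NRF2 protein, which is set mainly by its breakdown.

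Within a group, the 10 genes kept a similar order. FTL, FTH1 and TXNRD1 were the 3 highest in all 4 groups. NQO1 came next in both HCT116 groups, at 295.9 ± 4.41 TPM with CKAP2L and 290.6 ± 2.31 with vector (SD, n = 3 each), and HMOX1 in both RKO groups. GCLM was lowest in both HCT116 groups and SRXN1 in both RKO groups. SLC7A11 and GCLC stood side by side and overlapped in HCT116 CKAP2L and in RKO shCKAP2L; no other neighbours overlapped in any group.

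The genes around these 10 were described with 7 lists of 89 genes in all, the 10 left out, also chosen with earlier results known. Of 80 tested in HCT116, 20 rose and 6 fell with CKAP2L, and of 76 tested in RKO, 21 rose and 38 fell with shCKAP2L. Over all tested genes, the shares were 16.4% up and 4.26% down in HCT116, and 26.4% up and 42.1% down in RKO. The counts of each list below are to be read beside these shares. With median-of-ratios rescaling the lists were evenly split, with 12 up and 12 down in HCT116 and 28 up and 29 down in RKO.

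Among NRF2 regulators in HCT116, 5 of 9 rose and 0 fell (median log2 fold change 0.16). They included NFE2L1, an NRF2 relative (201 ± 3.19 TPM with CKAP2L and 154.9 ± 1.11 with vector, 0.37), SQSTM1, which sequesters KEAP1 (267.8 ± 2.36 and 211.9 ± 9.02, 0.34), the small MAF gene MAFF (54.46 ± 1.11 and 41.93 ± 1.16, 0.37) and the inhibitor KEAP1 (56.8 ± 1.57 and 48.85 ± 0.571, 0.21; SD, n = 3 each), with adjusted p-values of 0.0018 or less. In RKO, 3 of 9 rose and 4 fell with shCKAP2L (median 0.06), but 5 rose and 3 fell under either rescaling. The small MAF genes MAFK (23.85 ± 1.47 TPM with shCKAP2L and 38.29 ± 1.94 with NC, -0.66) and MAFF (30.32 ± 0.363 and 46.95 ± 0.665, -0.61) fell. Of the ligase that carries KEAP1, CUL3 fell (-0.28) and RBX1 rose (0.21; adjusted p = 1.22e-05 or less for the 4). BACH1, the repressor of HMOX1, was at 22.56 ± 0.278 TPM with shCKAP2L and 20.91 ± 1.01 with NC in RKO (0.11, adjusted p = 0.0297), and at 11.3 ± 0.397 with CKAP2L and 10.34 ± 0.696 with vector in HCT116 (SD, n = 3 each; adjusted p = 0.213).

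Of 14 genes of heme synthesis and turnover, 4 rose and 5 fell in RKO, but 6 rose and 5 fell under either rescaling. FECH, whose enzyme inserts iron to form heme, was at 32.25 ± 0.163 TPM with shCKAP2L and 21.4 ± 0.44 with NC (0.57). CPOX, an earlier step (48.26 ± 1.03 and 33.85 ± 2.81, 0.50), and the heme transporter SLC48A1 (26.61 ± 1.09 and 20.66 ± 0.393, 0.35) also rose. The adjusted p was 1.04e-06 or less for the 3 (SD, n = 3 each). Hemoglobin and other red cell markers summed to 1.12 to 4.59 TPM with shCKAP2L and 0.03 to 0.53 with NC; their part in these values was not tested. In HCT116, 1 of 14 rose and 0 fell, and it was SLC48A1 (0.16, adjusted p = 0.0359), a call lost without CKAP2L replicates 1 (0.143) or 2 (0.098) and vector replicates 1 (0.0532) or 2 (0.132), each an adjusted p. ALAD, BLVRB and FLVCR1 did not pass (adjusted p = 0.0961 or more). ALAD passed as lower under median-of-ratios rescaling (-0.17, adjusted p = 0.0336) and without mitochondrial mRNAs (adjusted p = 0.0448), and BLVRB (0.13, adjusted p = 0.0311) and FLVCR1 (0.25, adjusted p = 0.0325) passed as higher without vector replicate 1. In the whole list, 0 rose and 2 fell under median-of-ratios rescaling.

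Of iron genes, 3 of 9 rose and 4 fell in RKO. The transferrin receptor TFRC (84.08 ± 2.41 TPM with shCKAP2L and 64.06 ± 3.88 with NC, 0.39) and NCOA4, the receptor that sends ferritin to lysosomes (168.4 ± 2.07 and 139.0 ± 2.1, 0.27), rose. The iron chaperone PCBP1 (414.4 ± 4.47 and 533.2 ± 10.3, -0.36) and the iron importer SLC11A2 (23.5 ± 0.649 and 30.43 ± 0.425, -0.36; SD, n = 3 each) fell (adjusted p = 3.17e-07 or less for the 4). The exporter SLC40A1 was listed at 0 in every RKO library. In HCT116, 4 of 11 rose and 0 fell with CKAP2L: SLC39A14 (0.25, adjusted p = 0.000262), PCBP2 (0.14, adjusted p = 0.00674), TFRC (0.14, adjusted p = 0.00991) and CYBRD1 (0.17, adjusted p = 0.0484). Under median-of-ratios rescaling 1 rose and 1 fell. The TFRC call was lost without CKAP2L replicate 2 (adjusted p = 0.061). The CYBRD1 call was lost without any single library other than vector replicate 2 (adjusted p = 0.107, 0.0933 and 0.143 without CKAP2L replicates 1 to 3, and 0.17 and 0.0613 without vector replicates 1 and 3).

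Of genes of glutathione synthesis and use, 4 of 15 rose and 8 fell in RKO, and 2 of 14 rose and 3 fell in HCT116. CHAC1, which degrades glutathione, was at 17.96 ± 0.558 TPM with shCKAP2L and 40.08 ± 0.808 with NC in RKO (-1.12), and at 146.6 ± 1.89 with CKAP2L and 114.1 ± 4.4 with vector in HCT116 (0.36). SLC3A2, the partner chain of SLC7A11, was at 175.9 ± 6.52 TPM with shCKAP2L and 214.3 ± 2.45 with NC (-0.28), and at 581.4 ± 5.71 with CKAP2L and 443.9 ± 5.87 with vector (SD, n = 3 each; 0.39). Both genes therefore fell in RKO and rose in HCT116 (adjusted p = 1.08e-05 or less for CHAC1 and SLC3A2), as SLC7A11 did. In RKO the glutaredoxin GLRX rose (0.41) and GPX4, which reduces lipid peroxides, fell (-0.30; adjusted p = 1.77e-07 or less for the pair). In HCT116 the transferase GSTP1 (-0.14, adjusted p = 0.00175) and glutathione reductase GSR (-0.13, adjusted p = 0.0111) fell, though GSR was lost without CKAP2L replicate 1 (adjusted p = 0.0576) or vector replicate 1 (adjusted p = 0.053).

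Of thioredoxin and peroxiredoxin genes, 3 of 12 rose and 7 fell in RKO, and 1 of 11 rose and 2 fell in HCT116. In RKO the mitochondrial peroxiredoxin PRDX3 (232.1 ± 1.21 TPM with shCKAP2L and 362.9 ± 10.2 with NC, -0.64), the stress gene SESN2 (94.43 ± 2.0 and 135.9 ± 2.86, -0.52) and thioredoxin itself, TXN (802.9 ± 24.0 and 933.0 ± 11.5, -0.22; SD, n = 3 each), fell, and PRDX4 of the endoplasmic reticulum rose (0.30; adjusted p = 1.81e-06 or less for the 4). TXN thus fell where its reductase TXNRD1 rose. In HCT116 SESN2 rose (0.36, adjusted p = 4.01e-05) and the peroxiredoxins PRDX1 (-0.27, adjusted p = 0.000273) and PRDX2 (-0.23, adjusted p = 0.000206) fell, while PRDX6 did not pass (0.06, adjusted p = 0.235). Under median-of-ratios rescaling 3 of this list rose and 3 fell in RKO.

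Of the NADPH and pentose phosphate genes, which supply reducing power to glutathione and thioredoxin reductases, 0 of 9 rose and 7 fell in RKO (median -0.14). TALDO1 (142.3 ± 2.27 TPM with shCKAP2L and 249.0 ± 5.25 with NC, -0.80) and TKT (262.1 ± 3.52 and 364.0 ± 4.59, -0.47) of the pentose phosphate pathway and IDH1 (96.21 ± 1.79 and 128.9 ± 3.03, -0.42; SD, n = 3 each) were among them, with adjusted p-values of 3.4e-09 or less. Under median-of-ratios rescaling 1 rose and 5 fell. In HCT116, 5 of 10 rose and 1 fell (median 0.11), among them malic enzyme ME1 (0.37), IDH1 (0.28) and MTHFD2 (0.24), with adjusted p-values of 0.000133 or less. Under median-of-ratios rescaling 3 rose and 3 fell. ME1 was listed at 0 in every RKO library.

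Of quinone, carbonyl and conjugation enzymes, only 8 of 16 reached the filter in RKO and 11 of 16 in HCT116. The aldo-keto reductases AKR1B10, AKR1C1 and AKR1C2, often used as NRF2 markers, stayed below it in both lines. In RKO 4 of 8 rose and 3 fell. GSTA4, which conjugates lipid aldehydes (31.3 ± 0.803 TPM with shCKAP2L and 14.88 ± 0.419 with NC, 1.02), and UGDH (30.03 ± 0.714 and 17.74 ± 0.0985, 0.73; SD, n = 3 each) rose. NQO2, a relative of NQO1 (-0.33), and CBR3 (-0.27) fell, as NQO1 did (adjusted p = 0.000182 or less for the 4). In HCT116 2 of 11 rose and 0 fell: the exporter ABCC3 (45.13 ± 1.64 TPM with CKAP2L and 33.35 ± 1.28 with vector, SD, n = 3 each; 0.43, adjusted p = 2.03e-05) and OSGIN1 (0.20, adjusted p = 0.0225). The OSGIN1 call was lost without CKAP2L replicate 1 (adjusted p = 0.0633), 2 (0.0753) or 3 (0.0561) and without vector replicate 2 (0.0926). ABCC2 and EPHX1 did not pass (adjusted p = 0.0533 and 0.0846), but each passed without vector replicate 3 (adjusted p = 0.0159 and 0.0443).

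**Figure D4:**
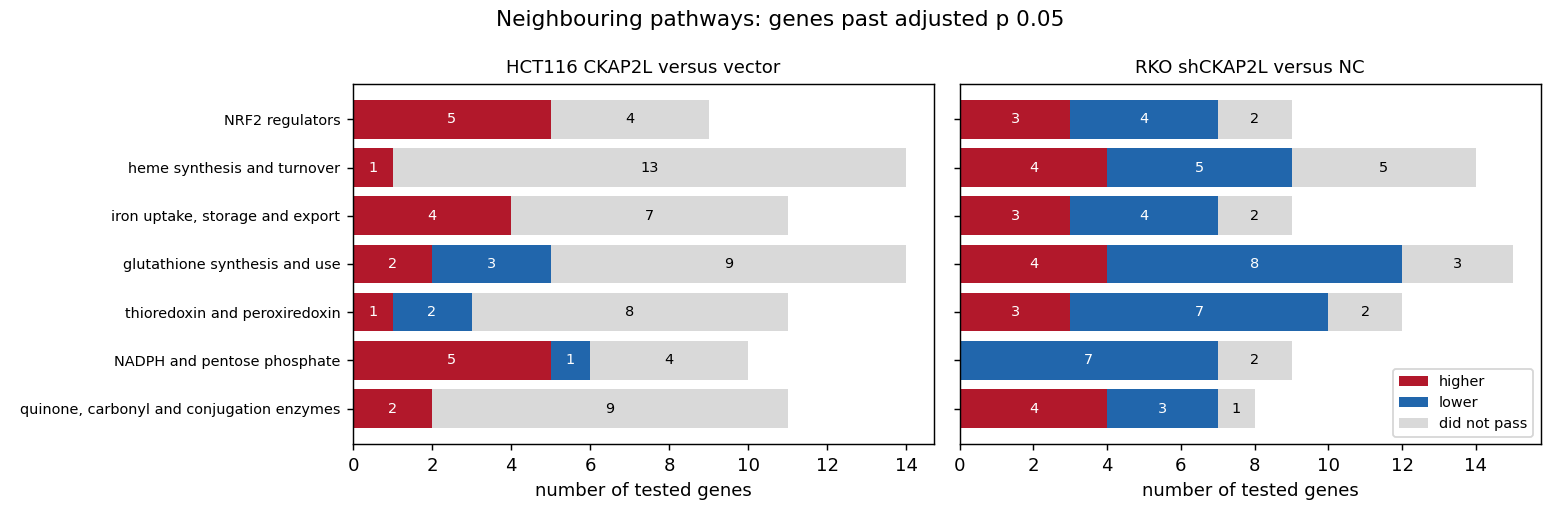
Number of tested genes (horizontal axes) in each of 7 lists around the 10 genes that were higher, lower or did not pass an adjusted p of 0.05, for CKAP2L against vector in HCT116 (left) and shCKAP2L against NC in RKO (right). For the NADPH and pentose phosphate list, 5 rose and 1 fell in HCT116, and 0 rose and 7 fell in RKO. Over all tested genes, 16.4% rose and 4.26% fell in HCT116, and 26.4% rose and 42.1% fell in RKO.

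The genes whose pattern was most like that of HMOX1 were sought among 11024 genes tested in both lines, by Pearson's r of log2 values centred on their own line over the 12 libraries. The closest 5 were FZD6 (r = 0.9971), CBX6 (0.9943), FLOT2 (0.9941), SEMA7A (0.9934) and TMEM43 (0.9926). FZD6, a receptor of WNT ligands, averaged 72.22 TPM with shCKAP2L and 40.0 with NC in RKO, and 39.35 with CKAP2L and 33.11 with vector in HCT116. TMEM43 averaged 62.57 TPM with shCKAP2L and 36.13 with NC, and 82.7 with CKAP2L and 72.96 with vector. The 12 values fall into 4 groups, so a high r mostly says that both genes rose in RKO and rose less in HCT116.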

How the data were processed

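Per the labels' protocols, Trizol-extracted RNA was cleared of DNA with DNase I and mRNA libraries were prepared from it with a commercial kit. TPM values were deposited by the authors, in a separate table for each line, for 20263 genes. The submitters' processing notes name bedtools 2.26.0, HISAT2 2.0, Trimmomatic 0.36 and FastQC 0.11.2, and the build GRCh38. The counting tool, annotation and treatment of strand were not given in the sources used here. Depth cannot be had from TPM. No pair of libraries was identical. Of the identifiers, 20148 had a symbol in a gene name table, 76 in GENCODE release 29 and 39 in neither. Positions are those of GENCODE 29.

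Each line was fitted on log2(TPM + 1) with limma (version 3.58.1, R 4.3.3), with a trended variance and without covariates, for genes whose TPM averaged 1 or more. The limma step was tested on simulated data. Each adjusted p is from limma unless a permutation test is named. Ratios within libraries used exact permutation tests. Alternatives were other pseudocounts, filters and scalings, no trend, a replicate block and leaving out each library. Of each list, up to 4 genes with the smallest adjusted p were named per line, besides the 10 genes themselves (a few are not reported here); BACH1 and HMOX2 and the genes that overlap the 10 were named after their values were seen. The 10 genes and the lists were chosen with earlier results of these data known.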

Additional observations from a re-analysis of the deposited data

Results flagged for a closer look

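HMOX1 and TXNRD1 moved in opposite ways with the CKAP2L level in the 2 lines, with no overlap of groups in either. The log2 fold change of HMOX1 was 0.42 with CKAP2L against vector in HCT116 and 1.37 with shCKAP2L against NC in RKO. That of TXNRD1 was 0.23 in HCT116 and 0.40 in RKO. The pattern was not particular to these genes. Of the listed genes around them, SQSTM1 (0.34 in HCT116 and 0.16 in RKO) and SLC39A14 (0.25 and 0.23) also passed as higher in both lines. So did TFRC (0.14 and 0.39), SLC48A1 (0.16 and 0.35) and OSGIN1 (0.20 and 0.19). Others, among them SLC3A2, CHAC1 and MAFF, rose in HCT116 and fell in RKO. The share of all genes that rose in both lines was not counted. The difference between the lines was not tested, since line, manipulation and table differ together and cannot be told apart.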

How the results depend on the processing

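Over 14 alternatives per line, HMOX1, TXNRD1, SLC7A11 and FTH1 kept direction and call in both lines, as did NQO1, NFE2L2 and GCLC in RKO. A few values that did not pass turned direction under rescaling, while others such as GCLC, GCLM and SRXN1 in HCT116 did not. Under median-of-ratios rescaling NQO1 was at -0.033, FTL at -0.037 and PRDX6 at -4.8e-05 in HCT116, and FTL at 0.05 and GCLM at 0.031 in RKO. Without mitochondrial mRNAs NQO1 was at -0.022 and FTL at -0.026 in HCT116, and FTL at 0.029 and GCLM at 0.0089 in RKO. FTL in RKO was also at 0.001 without shCKAP2L replicate 2 and at 0.0096 without NC replicate 2 (-0.021 without NC replicate 3). Genes called in HCT116 numbered 2625, but 1689 without the trend and 1479 to 3428 when 1 library was left out (1479 without CKAP2L replicate 1, 1717 without CKAP2L replicate 2). In RKO 7838 were called, and 7236 to 7877 when 1 library was left out. HMOX1 minus NQO1 ran from 0.37 to 0.41 in HCT116 and from 1.88 to 1.91 in RKO when 1 library was left out, HMOX1 minus FTH1 from 0.14 to 0.19 and from 1.48 to 1.53, and HMOX1 minus FTL from 0.37 to 0.43 and from 1.36 to 1.40.

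With the replicate number as a block, 2200 genes were called in HCT116 and 7861 in RKO. Deviations of same-numbered libraries correlated at -0.09 to 0.05, so no shared effect of the replicate number was seen. Whether same-numbered libraries share a culture or day is not stated in the sources used here. With that block SRXN1 passed in HCT116 (adjusted p = 0.0472) while NFE2L2 (adjusted p = 0.0671), SLC48A1 (adjusted p = 0.0613) and CYBRD1 (adjusted p = 0.0836) did not. It changed no other call of a gene named for its line. The cause of these changes was not tested.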
